A study of Mus musculus with 8 samples.

Results

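The genes described here encode 37 corepressor and chromatin remodeller subunits, among them partners through which Ikaros-family factors act on chromatin. They were the rows of the deposited count table whose symbol is on a list of CtBP, NuRD, Sin3, CoREST, NCoR, BAF and PRC2 subunits, so 37 of 49040 genes. The list goes by function, but it was drawn up with earlier results of these data known. Their transcripts were counted in 8 RNA-seq libraries from CD4+ T cells of C57BL/6J mice, 4 labelled wild type and 4 labelled Ikzf4-/-, a knockout of the gene for Eos. Cells of both genotypes were naive at the start and grew for 72 h on plates coated with antibodies to CD3 and CD28 in a Th1-polarising medium. The labels do not give the knockout allele, how many animals were used or whether the replicate numbers 1 to 4 are separate animals, so p-values reflect only how far these libraries differ, which may be technical.

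Eos belongs to the Ikaros family of zinc-finger proteins, which bind DNA with one set of fingers and pair with each other through another. These factors have no enzyme activity of their own and work by bringing other complexes to their sites. Eos is known to bind the corepressor CtBP1 in regulatory T cells, and Ikaros and Aiolos are found in NuRD, Sin3 and BAF complexes in lymphocytes. NuRD joins a remodelling ATPase with histone deacetylases, Sin3, CoREST and NCoR are deacetylase-bearing corepressors, BAF slides or evicts nucleosomes, and PRC2 methylates histone H3 at silenced genes.

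Library totals ran from 25227017 to 53149322 counts, and the 37 genes together held 0.653% to 0.721% of the counts of a library. Ikzf4 was at 41.1, 41.4, 48.1 and 54.9 CPM (counts scaled to library size with TMM factors) in wild type 1 to 4 and at 2.14, 2.58, 4.88 and 3.63 CPM in knockout 1 to 4, so the libraries match their labels. Of the other family members, Ikzf2 (Helios) and Ikzf3 (Aiolos) fell in a fit with the replicate number as a block, with log2 changes of -1.38 ± 0.13 and -0.84 ± 0.08 (edgeR adjusted p = 0.00085 and 0.00087, and 0.431 and 0.348 without the block), while Ikzf1 (Ikaros) and Ikzf5 (Pegasus) changed by 0.11 ± 0.07 and 0.07 ± 0.17 and were not called. Cd4 stood between 439 and 695 CPM in every library, against 1.06 to 8.64 CPM for Cd8a, a marker of the other main T cell class. The summed level of 4 myeloid markers was at most 0.687 CPM, and that of 4 B cell markers at most 1.69 CPM outside knockout 1, where it was 7.98 CPM. In bulk RNA, fewer cells of a type and less RNA per cell cannot be told apart.

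The stretches before the RefSeq starts of Ctbp1 and Smarcc1 are shown, the first because CtBP1 is a corepressor known to bind Eos and the second because the wild-type and knockout levels of Smarcc1 did not overlap. Capitals mark GGGAA, the core that Ikaros-family fingers recognise, on either strand. The sequences are RefSeq's for GRCm38.p6, read 5′ to 3′ on the strand of the gene and ending at the base before the start. The Ctbp1 stretch lies at chr5:33275005-33275254 (minus strand), and 5 of its 12 GENCODE M21 transcripts start within 50 bases of the listed start. The Smarcc1 stretch lies at chr9:110131774-110132023 (plus strand), and 5 of its 9 transcripts start within 50 bases, while the gene as annotated begins 14.3 kb upstream.
Ctbp1: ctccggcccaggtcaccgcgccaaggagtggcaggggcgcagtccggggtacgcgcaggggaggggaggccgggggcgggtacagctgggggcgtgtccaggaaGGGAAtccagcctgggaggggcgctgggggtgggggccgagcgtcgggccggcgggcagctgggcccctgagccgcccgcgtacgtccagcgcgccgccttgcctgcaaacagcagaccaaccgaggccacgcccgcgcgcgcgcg
Smarcc1: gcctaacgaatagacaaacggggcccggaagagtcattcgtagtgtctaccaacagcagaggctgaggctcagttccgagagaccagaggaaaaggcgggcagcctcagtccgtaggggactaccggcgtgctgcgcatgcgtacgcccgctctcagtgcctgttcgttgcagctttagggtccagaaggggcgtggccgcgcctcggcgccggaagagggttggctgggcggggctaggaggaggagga

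GGGAA occurs 1 time in the Ctbp1 stretch and not in the Smarcc1 stretch. Of the 37 genes, 30 matched a RefSeq entry, and taking the first listed start of each, 14 of 30 (46.7%) held GGGAA on either strand within 250 bases, against 55.9% of 27025 genes. The longer TGGGAA, every match of which also contains a GGGAA match, was in 2 of 30 (6.67%), against 21.5% of all genes. In 4 of the 30 the first listed start lies over 1 kb inside the gene as GENCODE annotates it, and that of Ctbp2, 42.5 kb inside, is over 1 kb from any annotated transcript start. The 2 stretches with TGGGAA are those of Ctbp2 and Ncor1, both among these 4, with 42.4% and 36.8% G and C. The shares depend on which listed start is taken. At their other listed start, Ctbp2 and Ncor1 hold neither motif, while Gatad2a holds TGGGAA. Gatad2b, Arid1a and Chd4 lack GGGAA at the first listed start and hold it at the other. The Ctbp1 stretch had 77.6% G and C and the Smarcc1 stretch 63.6%. These matches describe the letters and are not binding sites.

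Almost all of these genes were well expressed in Th1 cells, and their levels spanned a wide range. Levels are compared between genes as CPM per kb of exon, with exon lengths from GENCODE M21, since the authors' annotation is not given in the sources used here. A length takes in the exons of all annotated transcripts of a gene, whether or not these cells use them. Orders and ratios per length depend on this choice, as with 14269 bases for Smarca2 against 6475 for Smarca4. The median over the 37 genes was 25 CPM per kb in wild type, against 4.63 over 14521 tested genes with a length, and 35 of the 37 stood above the latter value. The order from high to low is fine-grained: 31 of its 36 neighbouring pairs had overlapping wild-type ranges.

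The most abundant members per length were chaperone, ATPase and deacetylase subunits of NuRD. Rbbp7, a histone-binding subunit shared by NuRD, Sin3 and PRC2, had the highest wild-type mean, 125 ± 16.5 CPM per kb (SD, n = 4). Chd4, the ATPase that drives NuRD and associates with Ikaros in T cells, followed with 103 ± 21.7. Hdac1, the deacetylase shared by NuRD, Sin3 and CoREST, had 86.5 ± 5.27, and Mta2, a scaffold subunit of NuRD, had 83.1 ± 5.96. The range of Rbbp7 overlapped that of Chd4, and the ranges of Chd4, Hdac1 and Mta2 overlapped each other, so the order of these neighbours is not set by these libraries. Of the unique 50-base words of Hdac1 transcripts, 35.5% also occur in transcripts of other genes, mainly Gm10093, so its level depends on how such reads were counted, which is not given. The same limit holds for Rbbp7, with 11.2% of its words shared, mainly with Gm6382. Txlng, on the other strand, overlaps 5.98% of the Rbbp7 exon length.

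**Figure D1:**
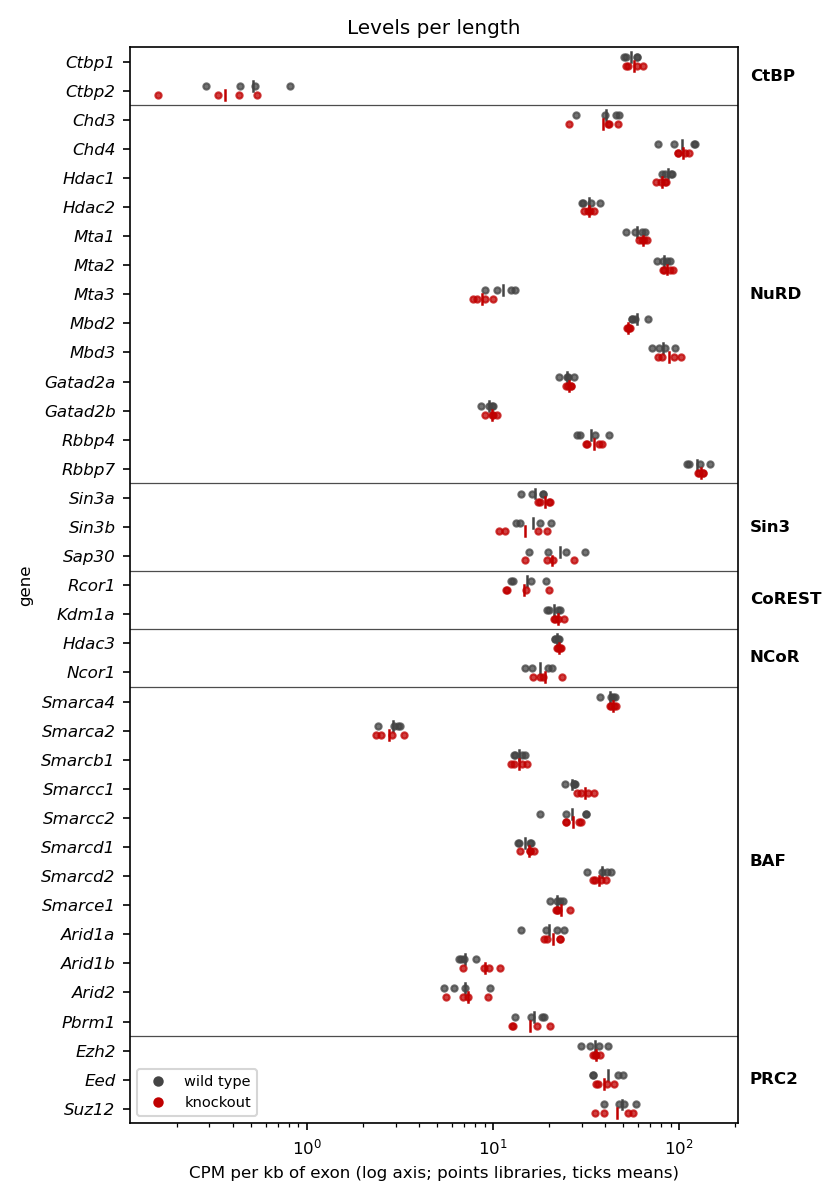
Levels per length of the 37 genes, with CPM per kb of exon on a log axis, 1 point per library and a tick at each group mean, grouped by complex (subunits of several complexes stand in the first). Wild-type means run from 0.516 for Ctbp2 to 125 for Rbbp7, and both genotypes occupy the same part of the axis for each gene.

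Some related subunits were expressed very unequally, while others stood close together on average. Smarcc2 over Smarcc1 and Sin3b over Sin3a had mean wild-type ratios per length of 0.974 and 0.97. Single libraries varied around these means. Before division by length, the wild-type count ratios ran from 0.466 to 0.926 for Smarcc2 over Smarcc1. Those for Sin3b over Sin3a ran from 0.989 to 1.74. The CtBP family was almost entirely Ctbp1, with 55.1 ± 4.96 CPM per kb in wild type against 0.516 ± 0.221 for Ctbp2. Of the BAF ATPases, Smarca4 stood at 42.4 ± 3.33 CPM per kb and Smarca2 at 2.91 ± 0.335, a ratio per length of 0.0684 for Smarca2 over Smarca4. In NuRD, Chd3 reached 0.391 of the level of Chd4 per length, and Mta3 reached 0.135 of that of Mta2. In PRC2, the methyltransferase gene Ezh2 had 35.4 ± 5.01 CPM per kb, and its relative Ezh1, not on the list, 3.95 ± 0.490. The Arid1b and Arid2 genes, which encode alternative DNA-binding subunits of BAF forms, stood at 7.09 ± 0.700 and 7.08 ± 1.84 CPM per kb, below Arid1a with 19.9 ± 4.32.

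For most of the 37 genes, measured transcript levels differed little between the genotypes. All 37 genes passed the filter on low counts and were tested, and with genotype as the only term none was called at an adjusted p of 0.05 (edgeR quasi-likelihood test), where 0.157% of the 14672 genes tested were called, 0.0545% higher and 0.102% lower in the knockout. At an unadjusted p under 0.05 there were 3 of 37, or 8.11%, against 8.10% of all genes. The authors' deposited log2 changes and those of DESeq2 run here match to within 1.58e-06 for the 37 genes, so they count as 1 analysis. It also called 0 of the 37, where DESeq2 run here called 1.49% of the genes tested. DESeq2 had 3 of 37 at an unadjusted p under 0.05, or 8.11%, against 8.72% of all genes. The median change over the 37 was 0.03 on the log2 scale (knockout minus wild type), against -0.00314 over all genes, with 23 values above 0 and 14 below. For 33 of the 37 the change was smaller than 0.2 in size (60.6% of all genes), the others being Ctbp2, Mta3, Smarcc1 and Arid1b.

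The 95% intervals show what size of change these libraries leave possible. They lay within a 1.5-fold change in both directions for 32 of the 37 genes, against 46.9% of all genes, and within 2-fold for 36, against 71.8%. All genes are not matched to the 37 for expression level, on which the width of an interval depends. In wild type, 30 of the 37 stood above the upper quartile of tested genes with a length, 14.7 CPM per kb. The part of level in these shares, and in those of changes under 0.2, was not tested. Outside the 1.5-fold bounds were Ctbp2, Mta3, Sin3b, Sap30 and Arid1b. The narrowest interval was that of Hdac3, the deacetylase of NCoR, with a change of 0.04 on the log2 scale (-0.13 to 0.20). The widest was that of Ctbp2, with -0.51 (-1.46 to 0.45), on 53 to 223 counts per library.

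**Figure D2:**
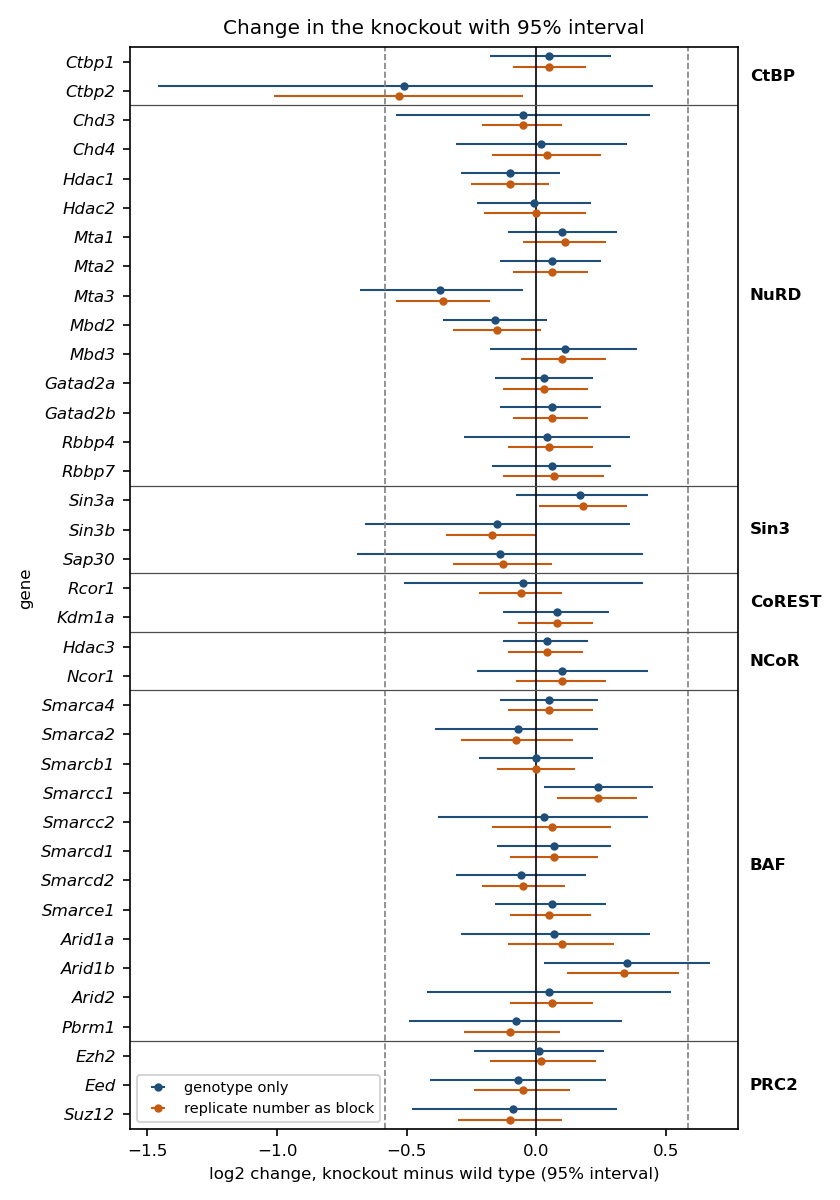
Log2 change of each gene, knockout minus wild type, with its 95% interval from edgeR with genotype only (blue) and with the replicate number as a block (orange); dashed lines mark a 1.5-fold change. Most points sit near 0, and Ctbp2 has the widest interval, from -1.46 to 0.45 without the block.

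Same-numbered libraries of the 2 genotypes resembled each other, and adding the number to the model narrowed the intervals. With the block, 1 of the 37 genes was called, Mta3, which was lower in the knockout, where 6.71% of all genes were called, 2.69% higher and 4.01% lower. The share among the 37 was 2.70%. At an unadjusted p under 0.05 there were 5 of 37, or 13.5%, against 21.7% of all genes. The intervals of 36 genes then lay within 1.5-fold (61% of all genes) and of the same 36 within 2-fold (82.1%), the exception being Ctbp2, and 33 changes were again smaller than 0.2 (60.8%). In 13 of the 37 genes (35.1%) all 4 pairs differed in the same direction, against 30.6% of all genes.

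The CtBP genes did not pass the test in either fit. Ctbp1, which encodes the corepressor that Eos binds, was at 266, 266, 225 and 230.5 CPM in wild-type libraries 1 to 4, against 266, 287, 237 and 233 CPM in the Ikzf4-/- libraries. The groups overlapped, with a log2 change of 0.05 ± 0.10 (SE; edgeR adjusted p = 0.962). Ctbp2 was low throughout, at 5.05, 1.78, 3.27 and 2.73 CPM in wild-type libraries 1 to 4, against 2.68, 0.985, 3.35 and 2.08 CPM in the Ikzf4-/- libraries. Wild type 1 was the highest library and knockout 2 the lowest, and the groups overlapped (change -0.51 ± 0.42; adjusted p = 0.859, and 0.188 with the block). In the annotation 5.05% of the Ctbp2 exon length overlaps Fgfr2 on the same strand, so reads there cannot be given to either gene with certainty.

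Among NuRD genes, Mta3 alone differed, and only with the block. Mta3 encodes an MTA scaffold protein, which holds the deacetylases in the complex, and had the lowest transcript level per length of Mta1, Mta2 and Mta3. Its level was 48.0, 55.9, 70.1 and 66.5 CPM in wild-type libraries 1 to 4, against 41.7, 43.6, 52.9 and 48.1 CPM in the Ikzf4-/- libraries. Each knockout library was lower than the wild-type library of the same number, while the groups as a whole overlapped, since wild type 1 lay below knockout 3 and 4. Its log2 change was -0.37 ± 0.14 without the block (edgeR adjusted p = 0.533) and -0.36 ± 0.08 with it (adjusted p = 0.0309). The call was lost when pair 1, 3 or 4 was left out (edgeR adjusted p = 0.0575, 0.189 and 0.136 in that order). The changes were then -0.41, -0.35 and -0.32. It held without pair 2 (-0.36; edgeR adjusted p = 0.0289). Calls over all genes also went from 984 to 622, 398 and 529 without pairs 1, 3 and 4, and to 1437 without pair 2. These fits therefore do not show which pairs carried the call.

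The other NuRD genes were not called. Mbd2, which encodes the methyl-CpG reader of one NuRD form, was at 179, 218, 187 and 179 CPM in wild-type libraries 1 to 4, against 173, 170.1, 174 and 168 CPM in the Ikzf4-/- libraries. Every knockout library lay below every wild-type library (p = 0.0286 in a 2-sided exact permutation test, the minimum in this design), as in 2.49% of all genes, or 4.96% counting either direction. Smarcc1 was the other gene of the 37 without overlap, so the share in either direction was 5.41%. The change in Mbd2 was -0.16 ± 0.09 (edgeR adjusted p = 0.717, and 0.277 with the block). Mbd3, the subunit of the alternative NuRD form, went from 163 ± 20.1 to 176 ± 23.8 CPM, a change of 0.11 ± 0.13.

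Chd4 and Chd3, the NuRD ATPases, stayed close to their wild-type means. Chd4 was at 751, 614, 969.7 and 965 CPM in wild-type libraries 1 to 4, against 793, 792, 857 and 900.3 CPM in the Ikzf4-/- libraries, so the knockout values fell inside the wild-type range (0.02 ± 0.15; edgeR adjusted p = 0.993). Chd3 was at 235, 339, 403 and 384 CPM against 216, 348, 356 and 396 CPM, low in the library numbered 1 of both genotypes (-0.05 ± 0.22). The deacetylase genes Hdac1 and Hdac2 changed by -0.10 ± 0.08 and -0.01 ± 0.10. The changes in Mta1, Mta2, Gatad2a, Gatad2b, Rbbp4 and Rbbp7 lay between 0.03 and 0.10, with adjusted p of 0.877 or more.

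**Figure D3:**
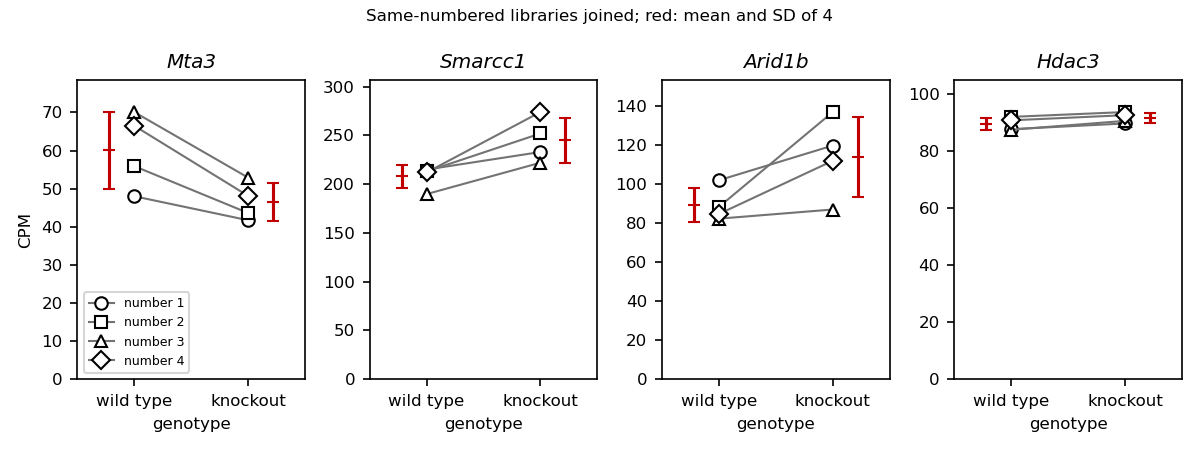
CPM of Mta3, Smarcc1, Arid1b and Hdac3 in each library, with same-numbered libraries joined by a line and the mean ± SD of 4 libraries in red; each axis starts at 0. All 4 lines descend for Mta3 and ascend for Smarcc1, Arid1b and Hdac3, and the Hdac3 values stay between 87.4 and 93.6 CPM.

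The Sin3, CoREST and NCoR genes gave no call in either fit. Sin3a, the scaffold of the main Sin3 complex, was at 87.3, 75.8, 99.7 and 99.3 CPM in wild-type libraries 1 to 4, against 94.0, 96.7, 109 and 108 CPM in the Ikzf4-/- libraries. The knockout library was higher in all 4 pairs, with a change of 0.17 ± 0.11 (edgeR adjusted p = 0.773, and 0.203 with the block). Sin3b, which encodes the alternative scaffold, was lower in all 4 pairs, at 151, 132, 103 and 98.1 CPM against 144, 129, 85.4 and 78.7 CPM (-0.15 ± 0.22; adjusted p = 0.94, and 0.232 with the block). Sin3b was lower in libraries 3 and 4 than in libraries 1 and 2 of both genotypes. Sap30, an accessory subunit of Sin3, was at 26.9 ± 7.92 and 24.3 ± 6.04 CPM (-0.14 ± 0.24).

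In CoREST, the scaffold gene Rcor1 and the demethylase gene Kdm1a changed by -0.05 ± 0.20 and 0.08 ± 0.09. Rcor1 followed the replicate number more closely than any other of the 37 genes, at 71.4, 72.6, 90.5 and 109.7 CPM in wild-type libraries 1 to 4, against 66.7, 67.8, 85.3 and 113 CPM in the Ikzf4-/- libraries. Ncor1, the NCoR scaffold, went from 228 ± 34.9 to 244 ± 39.3 CPM (0.10 ± 0.15; edgeR adjusted p = 0.939). Its deacetylase gene Hdac3 was the steadiest, at 87.6, 91.9, 87.4 and 90.7 CPM in wild-type libraries 1 to 4, against 89.6, 93.6, 90.5 and 92.5 CPM in the Ikzf4-/- libraries. Its groups overlapped, with all 8 values between 87.4 and 93.6 CPM.

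In the BAF complex, Smarcc1 and Arid1b had the largest positive values of the 37 genes, and neither was called in edgeR. Smarcc1, a core scaffold subunit, was at 215, 213, 189.8 and 212 CPM in wild-type libraries 1 to 4, against 233, 252, 222 and 274 CPM in the Ikzf4-/- libraries. All knockout libraries lay above all wild-type libraries, as in 2.47% of all genes (p = 0.0286 in a 2-sided exact permutation test), with a change of 0.24 ± 0.09 (95% interval 0.03 to 0.45; edgeR adjusted p = 0.55, and 0.0795 with the block). Arid1b, a large DNA-binding subunit used in place of Arid1a, was at 102, 88.3, 82.3 and 84.7 CPM in wild-type libraries 1 to 4, against 119.8, 137, 87.0 and 112 CPM in the Ikzf4-/- libraries. It was higher in the knockout in all 4 pairs, although the groups overlapped, and changed by 0.35 ± 0.14 (0.03 to 0.67; edgeR adjusted p = 0.57, and 0.0749 with the block). DESeq2 with the block placed Arid1b past the threshold (adjusted p = 0.0266) together with Mta3 (0.00356), where it called 9.58% of all genes with an adjusted p.

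The remaining 10 BAF genes changed by between -0.08 and 0.07 on the log2 scale. Smarca4, the main BAF ATPase of lymphocytes, was at 277, 244, 284 and 293 CPM in wild-type libraries 1 to 4, against 275, 288, 278 and 297 CPM in the Ikzf4-/- libraries, with a change of 0.05 ± 0.08 (edgeR adjusted p = 0.948). Its minor relative Smarca2 changed by -0.07 ± 0.14. Smarcb1, a core subunit present in all canonical forms, had the same mean in both groups, 109 ± 7.03 and 109 ± 9.65 CPM. Arid2 and Pbrm1, subunits of the PBAF form, changed by 0.05 ± 0.21 and -0.08 ± 0.18, and Arid1a, the main subunit of its kind here, by 0.07 ± 0.16. Smarcc2, Smarcd1, Smarcd2 and Smarce1 filled out the same narrow range.

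The PRC2 core genes were also close to their wild-type means. Ezh2, the methyltransferase, was at 222, 277, 246 and 199 CPM in wild-type libraries 1 to 4, against 238, 229, 249.5 and 236 CPM in the Ikzf4-/- libraries, where the libraries differed less among themselves (0.01 ± 0.11; edgeR adjusted p = 0.993). Eed, which reads the mark that PRC2 makes, was at 158 ± 32.2 and 151 ± 15.4 CPM (-0.07 ± 0.15). Suz12, which holds the complex together, was at 242 ± 37.9 and 228 ± 50.1 CPM (-0.09 ± 0.17). None of the 3 was called with the block.

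Most of the spread of these genes went with the replicate number, which has 3 of the 7 degrees of freedom among the libraries where genotype has 1. In 33 of the 37 genes (89.2%) the number held more of the spread in log2 CPM than genotype, against 85.2% of all genes. The medians over the 37 were 77.2% for the number and 6.10% for genotype, against 65.2% and 9.00% over all genes. Mta3, Mbd2, Smarcc1 and Arid1b were the exceptions. The number held over 80% of the spread in 14 genes (37.8%, against 29.4% of all genes), with 97.8% in Rcor1, 97.7% in Arid2, 97.4% in Smarcb1 and 97.0% in Chd3. Rcor1, Arid2, Pbrm1 and Suz12 were higher in libraries 3 and 4 than in libraries 1 and 2 of their genotype, and Sin3b, Smarcb1 and Eed were lower there. The labels do not say what the numbers stand for.

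**Figure D4:**
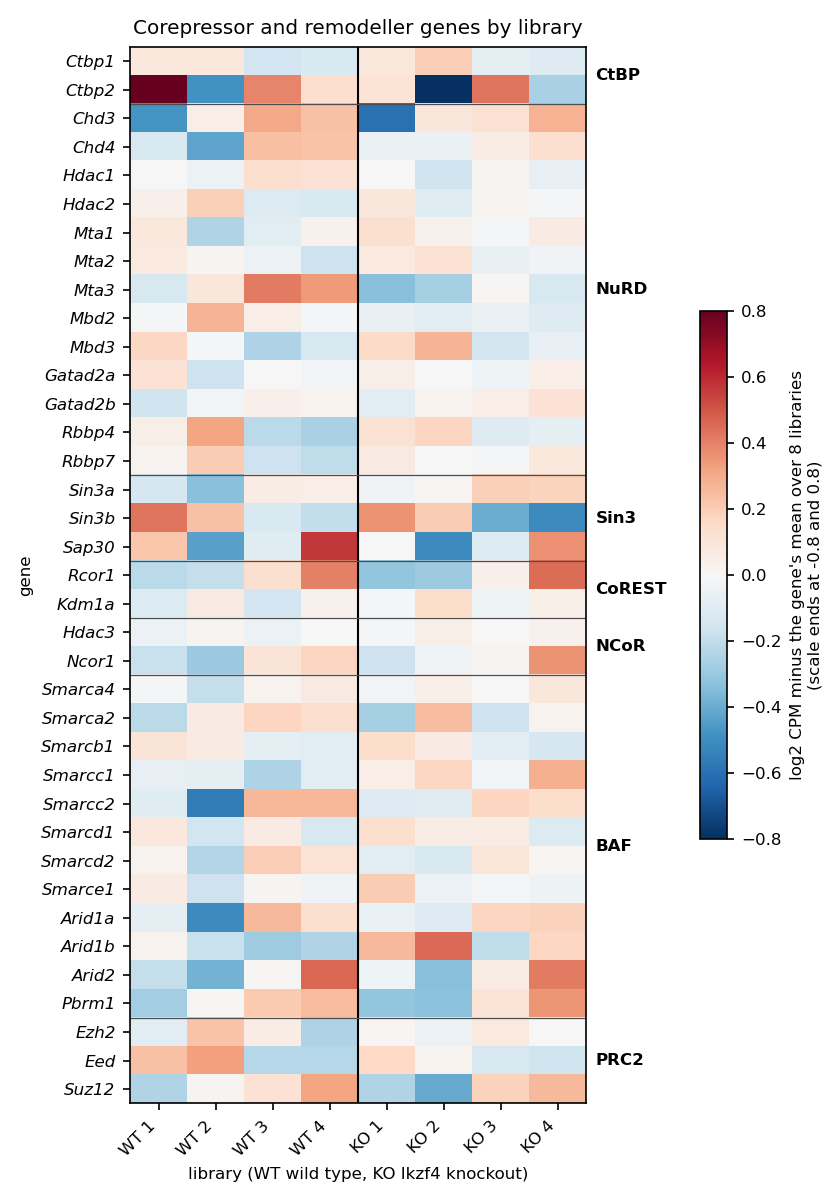
Log2 CPM of each gene in each library minus the mean of the gene over the 8 libraries, with wild type on the left and knockout on the right of the vertical line; colours saturate at -0.8 and 0.8. The colour pattern across libraries 1 to 4 recurs on both sides, as for Rcor1 and Arid2, in which the number held 97.8% and 97.7% of the spread.

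Ratios between related subunits, which need no scaling between libraries, did not separate the genotypes. Of 15 ratios compared, none had groups without overlap and none had an adjusted p under 0.05 over the 15 (2-sided exact permutation tests, smallest adjusted p = 0.796). Smarca2 over Smarca4 was 0.125, 0.173, 0.159 and 0.150 in wild type and 0.121, 0.166, 0.129 and 0.138 in the knockout, lower in all 4 pairs by a mean of -0.13 on the log2 scale (exact permutation p = 0.371). Mta3 over Mta2 was 0.131, 0.160, 0.210 and 0.215 against 0.114, 0.116, 0.159 and 0.141, lower in all 4 pairs (-0.42; exact permutation p = 0.114). Mbd2 over Mbd3, the choice between the alternative NuRD forms, was lower in all 4 pairs as well (-0.26; exact permutation p = 0.114). In 7 of the 15 ratios all 4 pairs went in the same direction, and the exact sign-flip test of 4 pairs cannot give a p below 0.125. The ratio that moved least was Rbbp7 over Rbbp4, with 0.01.

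**Figure D5:**
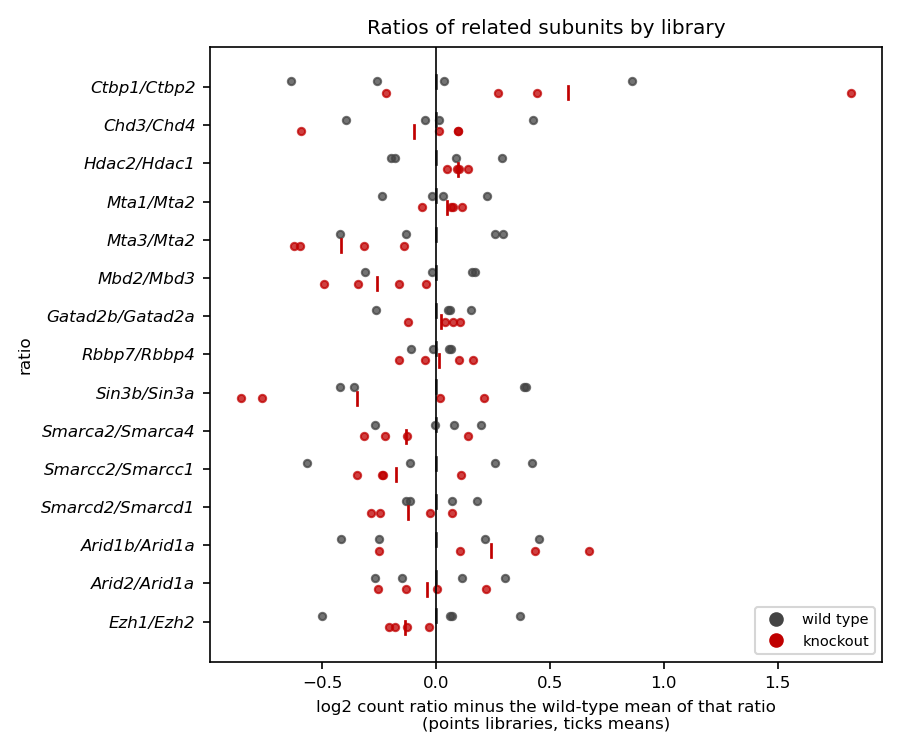
Log2 count ratio of related subunits in each library minus the wild-type mean of that ratio, with wild type in grey, knockout in red and ticks at the group means. The 2 groups overlap in all 15 ratios, and the means differ by 0.58 or less.

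Most further subunits and partners of the same complexes were not called either. Of 76 such genes in the table, 68 passed the filter, 0 were called without the block (4 at an unadjusted p under 0.05, and DESeq2 called 0 with 6), and 3 with it, 2 higher and 1 lower. These shares, 5.88% at an unadjusted p under 0.05 without the block and 4.41% called with it, were below the 8.10% and 6.71% of all genes. Hic1, a CtBP-binding repressor, fell in the blocked fit from 47.1 ± 7.47 to 35.5 ± 4.26 CPM (-0.40 ± 0.08; edgeR adjusted p = 0.0211, and 0.503 without the block). Bcl7a, an accessory BAF subunit, rose from 16.9 ± 2.24 to 23.3 ± 2.29 CPM (0.46 ± 0.11; adjusted p = 0.0375, and 0.38 without the block). Phf19, an accessory PRC2 subunit, rose from 28.5 ± 4.80 to 37.1 ± 3.07 CPM (0.39 ± 0.09; adjusted p = 0.0424, and 0.505 without the block). Hic1 no longer passed when pair 1, 3 or 4 was left out (adjusted p = 0.0508 to 0.137), and Bcl7a and Phf19 when any pair was left out (0.0507 to 0.127 and 0.0511 to 0.207).

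Ezh2 is known to be expressed most in dividing cells, and cell-cycle genes were measured beside it. The summed level of 18 cell-cycle genes ran from 5309.9 to 5851 CPM in wild type and from 6113 to 6484 CPM in the knockout. These ranges did not overlap. Taken singly, Mcm3 and Dnmt1 alone of the 18 had groups without overlap, as had 4.96% of all genes in either direction. edgeR called none of the 18 without the block (3 at an unadjusted p under 0.05, and DESeq2 called 0). With the block, edgeR called Tyms alone (0.34 ± 0.08, edgeR adjusted p = 0.0452). These are 16.7% at an unadjusted p under 0.05 and 5.56% called with the block, against 8.10% and 6.71% of all genes. Of the 5 gamma-delta T cell and NK markers, Ncr1 was at 0 in every library and Klrb1c at most at 0.254 CPM. The summed level of the 5 markers was 15.3 to 51.3 CPM in wild type and 4.46 to 14.4 CPM in the knockout, and Trdc, Tcrg-C1 and Tcrg-C2 were tested. edgeR called none of these 3 without the block (all 3 at an unadjusted p under 0.05) and all 3 lower with it, and DESeq2 without the block called all 3 lower. The blocked log2 changes were -2.12 ± 0.18 for Trdc, -1.60 ± 0.20 for Tcrg-C1 and -1.68 ± 0.13 for Tcrg-C2 (edgeR adjusted p = 0.000483, 0.00268 and 0.000271). Of 8 CD4+ T cell markers, Ifng, the cytokine gene typical of Th1 cells, was the one called with the block (-1.17 ± 0.08; edgeR adjusted p = 0.000232, and 0.28 without the block). Without the block, DESeq2 also called Ifng lower, alone of the 8 (DESeq2 adjusted p = 0.00679). The part of cell division or of such cells in the values of Mta3, Smarcc1 and Arid1b was not tested.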

How the data were processed

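Gene counts came from 1 deposited table of 8 libraries. Per the submitters' processing notes, the authors used STAR 2.5.2, Subread 1.5.2 (featureCounts), DESeq2 and the GRCm38 build. The annotation, the strand setting and the handling of multi-mapping reads are not stated in the labels. Per the file headers, the deposited table also holds the authors' DESeq2 log2 fold changes and standard errors, p-values, a test statistic (a score) and an average over libraries of size-factor-scaled counts (a signal). Their fold changes have the sign of wild type over knockout, opposite to the text, and DESeq2 run here differed from them by at most 1.58e-06 for the 37 genes.

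The counts were tested with edgeR 4.0.16 in R 4.3.3 (filterByExpr, TMM, quasi-likelihood, genotype as the only term), with Benjamini-Hochberg adjustment over all 14672 genes that passed the filter and a threshold of 0.05. Standard errors and 95% intervals come from the same fit. Both fits were tested on simulated data. Log2 CPM values use a prior count of 2, ratios add 0.5 to each count, and errors of means are SDs of 4 libraries. Exon lengths are unions over GENCODE M21 transcripts. Deviations from the group means correlated between libraries of equal number (0.612 to 0.732 across genes), for all 8 libraries more than with any other number, so the replicate number paired them. The pairing comes from these values, as the labels name no shared litter or day. Values with the block are printed where it changed a call, and also for some genes called in neither edgeR fit. Alternatives were DESeq2 1.42.0, other scaling factors, no filter, the block, and leaving out libraries or pairs. The genes named are all 37 members, Ikzf1 to Ikzf5 and, of further lists, genes called with or without the block, at most 5 a list. The members, lists and rules were chosen with earlier results of these data known.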

Additional observations from a re-analysis of the deposited data

Results flagged for a closer look

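In 74 groups of 4 libraries (37 genes in 2 genotypes), 2 had a library whose gap to its nearest neighbour took a larger part of the range of the group than Dixon's 95% critical value, where chance alone gives about 1 in 20. Smarcc1 in wild type 3 was at 189.8 CPM against 212 to 215 CPM in the other wild-type libraries (gap over range 0.907). Without that library the change in Smarcc1 was 0.19 on the log2 scale, against 0.24 with it. Smarce1 in knockout 1 was at 173 CPM against 145 to 149 CPM in the other knockout libraries (0.881).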

How the results depend on the processing

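Without the block, edgeR called 23 genes and 0 of the 37. Leaving out 1 library at a time gave 14 to 24 genes and 0 of the 37, DESeq2 over all genes with counts gave 225 and 0, and other scaling factors or no filter gave 22 to 28 and 0. With the replicate block 984 genes and 1 of the 37 were called, with the block and pair 1, 2, 3 or 4 left out 622, 1437, 398 and 529 genes and 0, 1, 0 and 0 of the 37, and in DESeq2 with the replicate block 1385 and 2. The median change of the 37 stayed between 0.01 and 0.04 on the log2 scale in all 19 settings. Under median-ratio scaling Smarcb1, with a change near 0, took the other sign, and leaving out 1 library turned the sign of 2 to 8 of the 37 values (up to 9 with the block and a pair left out), none of them called. The Ezh1 over Ezh2 ratio reached an unadjusted exact permutation p of 0.0286 without wild type 2 (-0.30, against -0.14 with it). That is the smallest p this test can give there. It was the 1 ratio result to cross 0.05 over the settings, while 149 did not. Among the 37, adding the block changed the call of Mta3 alone in edgeR, and the calls of Mta3 and Arid1b in DESeq2. Ctbp2, which has the lowest counts of the 37 (53 to 223 per library), changed by -0.75 to -0.20 over the settings, both ends with 1 library left out, and the cause was not tested. The 7 genes with no RefSeq entry have no promoter comparison.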
